A study of Rattus norvegicus with 4 samples.

Results

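Claudin genes and genes of the parietal epithelium were examined in glomerular RNA of rats injected intravenously with Adriamycin (ADR, doxorubicin). The set was defined by gene symbol and names 10 genes: the claudins Cldn1, Cldn2, Cldn5, Cldn10, Cldn16 and Cldn19, the transcription factor genes Pax2 and Pax8, and the surface protein genes Cd44 and Cd9. Values were available for 9 of these 10 among 13261 genes in all, and Cldn5 was not analysed here. The samples were glomeruli isolated by sieving from male Wistar rats of about 150 to 175 g, which form a single group of 4 replicates labelled ADR. No genetic change is named for these rats, and the oral agonist or vehicle treatments that the wider study describes are stated for rats given puromycin aminonucleoside, not for this group. The labels name harvest on day 11 or 21 without saying which applied here. There were no control samples in these data, so every result below is a level in ADR glomeruli or a difference between samples of the same group, and no direction of change after ADR can be read.

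Claudins are 4-pass membrane proteins that seal the space between neighbouring epithelial cells or form selective pores through it. Each nephron segment has its own set. Claudin-2 forms a cation and water pore of the proximal tubule, claudin-10 occurs as isoforms with cation or anion selectivity along the proximal tubule and the thick ascending limb, and claudin-16 and claudin-19 together serve magnesium and calcium transport in the thick ascending limb. Claudin-1 is a sealing claudin and a marker of the parietal cells that line Bowman's capsule. PAX2 and PAX8 are transcription factors of nephron formation that parietal cells retain. CD44, a hyaluronan receptor, and CD9, a tetraspanin, are known from parietal cells that become activated in glomerular scarring. Both proteins are also found on other cells, CD44 on leukocytes and CD9 on platelets and many epithelia.

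Replicates 1 to 4 carried between 13566962 and 16207027 reads in the genes used, and 1 read was worth 0.0617 to 0.0737 CPM (reads scaled to a common total per sample). Mitochondrial genes coding for protein took 7.46% to 12.5% of reads, most in replicate 2, and leaving them out of the total changed no call of the 9 genes. The labelled tissue was checked against marker lists. All 14 podocyte markers and all 11 measured endothelial markers were present in every sample, with at least 165 and 1393 reads. Tubule transcripts were present as well: the 12 proximal tubule markers had at least 852 reads each. In bulk RNA, fewer cells of a type and less RNA per cell cannot be told apart, and because CPM take no account of transcript length, levels of different genes are not ranked here. P-values below set the spread between these samples against counting error or, for limma, against genes of like abundance. They do not speak of rats beyond these samples. The labels also do not say whether the 4 samples came from separate rats.

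Of the 9 genes, 7 differed between samples by more than counting error, a state shared by 69.5% of all genes (chi-square test of reads with Benjamini-Hochberg adjusted p under 0.05). The 7 were Cldn1, Cldn2, Cldn10, Cldn19, Pax8, Cd44 and Cd9, and the other two were Cldn16 and Pax2. The level in the highest sample was more than 1.5 times that in the lowest for 5 of the 9, against 30.3% of all genes, and more than 2 times for Cldn1 and Cldn2, against 9.15%. These counts rested on replicate 3: without it they were 2 and 0 of the 9, against 21.9% and 5.98% of all genes. Without replicate 1, Cldn1 alone was above 2, and trimmed-mean or median-of-ratios factors brought Cldn10 above 2 as well. The median SD of log2 CPM was 0.29 for the 9 genes and 0.18 for all genes, and 0.23 and 0.17 without replicate 3. The value of 0.29 is the SD of Cldn19, which had 69 to 111 reads, where the median gene of the table had 439. Replicate 3 was the lowest sample for 5 of the 9 genes, namely Cldn1, Cldn2, Cldn10, Pax8 and Cd9, whereas it was lowest for 19.6% of all genes. The 7 calls kept their side of the threshold in each of the 8 other settings tried, except that of Cldn19.

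**Figure D1:**
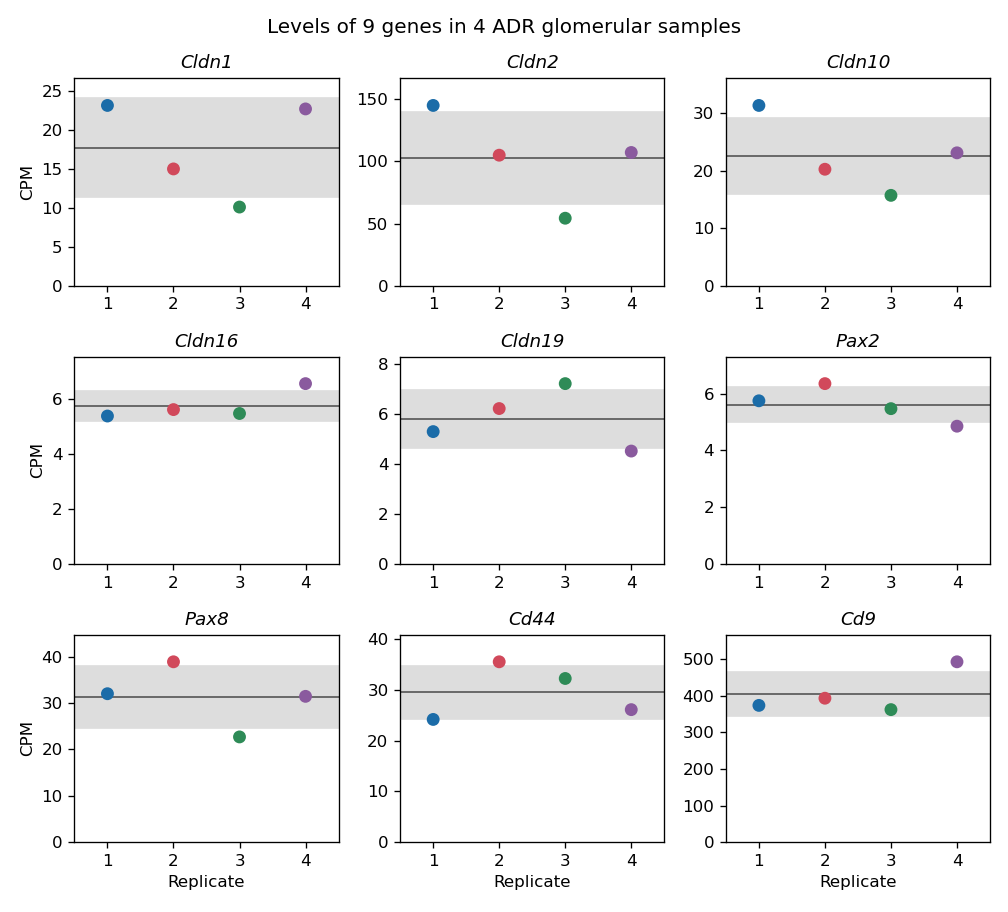
Level of each gene in CPM (vertical axis, starting at 0 and separate for each gene) in replicates 1 to 4 (horizontal axis); each point is a sample, the line is the mean and the grey band is the mean ± SD. Cldn1, Cldn2 and Cldn10 have their lowest point in replicate 3, while the points of Cldn16 lie between 5.38 and 6.56 CPM.

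Cldn2, the pore-forming claudin of the proximal tubule, had the largest SD of the 9 genes with all samples, 0.60 log2 CPM. It had 145, 105, 54.3 and 107 CPM in replicates 1 to 4, from 1969, 1703, 834 and 1635 reads. Replicate 1 was thus high, replicate 3 low, and replicates 2 and 4 were close together. The mean was 103 ± 37.3 CPM (SD, n = 4), and the highest sample was 2.67 times the lowest. This coefficient of variation of 36.2% compares with 2.55% from counting alone (chi-square test of reads, Benjamini-Hochberg adjusted p = 2.49e-127, at most 3.01e-26 in the other settings). The size of the spread rested on replicate 3: without it the ratio was 1.38 and the SD 0.26, below the SDs of Cldn1 (0.35) and Cldn10 (0.32) in the same 3 samples.

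Cldn10, the other claudin of this part of the nephron, had 31.3, 20.2, 15.7 and 23.1 CPM in replicates 1 to 4. As for Cldn2, replicate 1 was highest and replicate 3 lowest. The mean was 22.6 ± 6.57 CPM (SD, n = 4), with a ratio of 2.00 between the extremes (chi-square test of reads, Benjamini-Hochberg adjusted p = 4.12e-17). The 425, 328, 241 and 352 reads gave a counting error of 5.45%, against a coefficient of variation of 29.1%.

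Cldn1, the parietal cell claudin, had 23.1, 15.0, 10.1 and 22.7 CPM in replicates 1 to 4. Here replicates 1 and 4 were nearly equal, replicate 2 was lower and replicate 3 lowest. The mean was 17.7 ± 6.32 CPM (SD, n = 4), and the highest sample was 2.29 times the lowest. The difference between samples exceeded counting error (chi-square test of reads, Benjamini-Hochberg adjusted p = 4.33e-21), at 314, 243, 155 and 346 reads. Without replicate 3 its SD was 0.35 instead of 0.57 log2 CPM. Highest in replicate 1 and lowest in replicate 3 was also the order for 10.6% of all genes.

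Sequence upstream of the start sites was read from the RefSeq promoter table (build GRCr8), which held 8 of the 9 genes and not Cldn2. For Cldn1 and Cldn10 the 250 bases before the start are printed 5′ to 3′. They lie at chr11:87926126-87926375 on the plus strand for Cldn1 and chr15:102269608-102269857 on the plus strand for Cldn10. Pax8 and Cd9, lowest in replicate 3 like these claudins, are covered by the motif counts only. A relation of promoter letters to the order of samples was not tested. Capitals mark matches to the motifs searched on both strands.
Cldn1: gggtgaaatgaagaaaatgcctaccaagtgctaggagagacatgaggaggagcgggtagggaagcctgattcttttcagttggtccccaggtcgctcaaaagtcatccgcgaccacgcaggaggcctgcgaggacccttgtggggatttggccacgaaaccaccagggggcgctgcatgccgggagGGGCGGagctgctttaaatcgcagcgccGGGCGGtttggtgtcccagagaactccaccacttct
Cldn10: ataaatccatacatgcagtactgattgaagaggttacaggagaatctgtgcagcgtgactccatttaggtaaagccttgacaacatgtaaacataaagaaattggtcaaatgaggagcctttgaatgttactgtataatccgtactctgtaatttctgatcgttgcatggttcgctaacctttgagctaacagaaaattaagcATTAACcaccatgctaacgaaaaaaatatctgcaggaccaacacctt
The capitals in Cldn1 are 2 GC boxes (GGGCGG), the sequence bound by Sp-family factors, which begin 64 and 36 bases before the start. In Cldn10 they are the reverse complement of an HNF1 half-site (GTTAAT), HNF1 factors being regulators of tubular genes, beginning 47 bases before the start. A GC box was found in 5 of the 8 windows (Cldn1, Cldn19, Pax2, Pax8 and Cd9) and in 30.5% of all 33469 windows of this length. The half-site was found in Cldn10 alone of the 8 and in 6.45% of all windows. The TATA box (TATAAA), the AP-1 site (TGANTCA) and the letters CACGTG were in 0 of the 8 windows and in 12.9%, 6.34% and 5.59% of all windows. The Cldn1 window had 59.2% G and C and the Cldn10 window 38%, where the median of all windows was 51.2%. Cldn10 has alternative first exons, and the table gives a single start. These matches describe letters and show no binding.

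Proximal tubule markers had a like order of samples. All 12 markers differed beyond counting error, against 69.5% of all genes. Replicate 1 was highest for 11 and replicate 3 lowest for all 12, against 27.7% and 19.6% of all genes. Their summed level was 8151, 5624, 3835 and 6015 CPM in replicates 1 to 4. Set against this sum, Cldn10 varied little: the SD of its log2 level was 0.41, and the SD of its log2 ratio to the sum was 0.08. For Cldn2 these values were 0.60 and 0.18, with replicate 3 still lowest, 0.27 below the mean ratio (-0.27). For Cldn1 they were 0.57 and 0.24, and here replicate 4 stood out, 0.36 above the mean ratio. For Pax8, also lowest in replicate 3, they were 0.32 and 0.35, so its ratio was no less spread than its level. The part of tubular content in these differences was not tested.

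**Figure D2:**
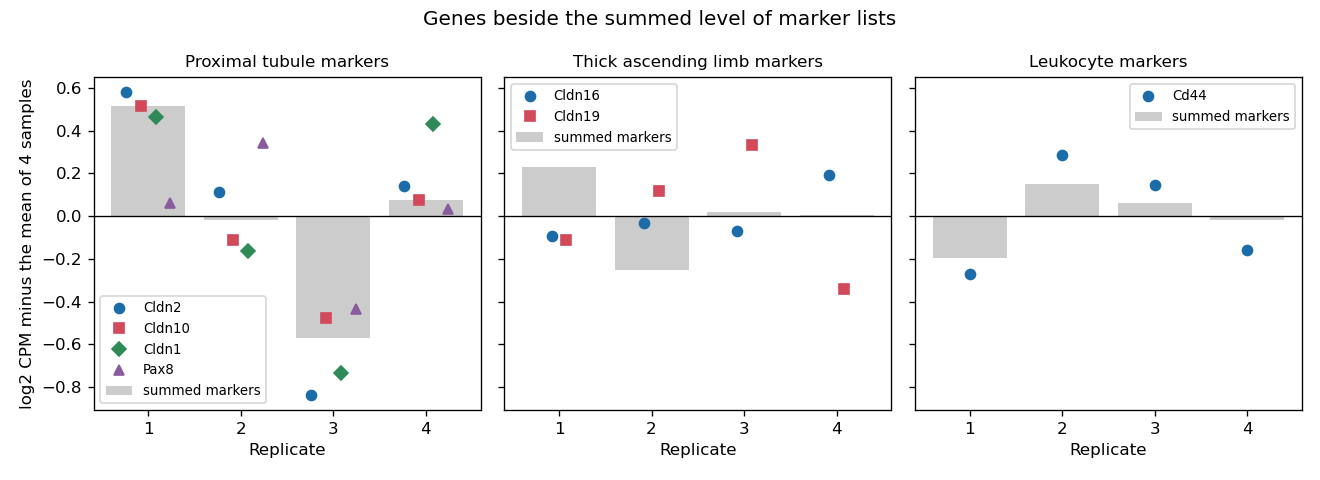
Points show log2 CPM minus the mean of 4 samples (vertical axis) for 7 genes in replicates 1 to 4 (horizontal axis); grey bars show the same for the summed CPM of the proximal tubule, thick ascending limb and leukocyte marker lists. Cldn10 lies 0.09 from the proximal tubule bars in replicates 2 and 3 and nearer to them in replicates 1 and 4, whereas the points of Cldn16 and Cldn19 depart from the thick ascending limb bars, a sum in which Umod is on average the largest part.

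The claudins of the thick ascending limb were low in reads and differed from this pattern. Cldn16 had 73, 91, 84 and 100 reads in replicates 1 to 4, or 5.38, 5.61, 5.47 and 6.56 CPM. Replicate 4 was above the others, which lay close together. The mean was 5.76 ± 0.54 CPM (SD, n = 4), and a difference between samples was not detectable at this depth (chi-square test of reads, Benjamini-Hochberg adjusted p = 0.55, from 0.403 to 0.968 in the other settings). Its coefficient of variation of 9.45% was below the 10.7% that counting alone gives.

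Cldn19 had 5.31, 6.23, 7.23 and 4.53 CPM in replicates 1 to 4. Replicate 3 was highest, where the proximal claudins were lowest, and replicate 4 was lowest. The mean was 5.82 ± 1.17 CPM (SD, n = 4), from 72, 101, 111 and 69 reads. It passed the threshold (chi-square test of reads, Benjamini-Hochberg adjusted p = 0.0213), but not without replicate 3 (0.165) or without replicate 4 (0.157).

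Cldn16 took 50.3%, 47.4%, 43.1% and 59.2% of the reads of the Cldn16 and Cldn19 pair in replicates 1 to 4, a share that does not depend on the scaling between samples. The 95% Clopper-Pearson interval in replicate 4, 51.4% to 66.7%, lay above that in replicate 3, 36.0% to 50.3%, and all other intervals overlapped. The 10 thick ascending limb markers summed to 731, 522, 631 and 625 CPM, with replicate 1 highest and replicate 2 lowest. The SDs of the log2 level and of the log2 ratio to this sum were 0.13 and 0.26 for Cldn16 and 0.29 and 0.40 for Cldn19. For Cldn10 they were 0.41 and 0.34. Umod, the gene of uromodulin, made up 333 ± 79.7 CPM (SD, n = 4) of the mean sum of 627 CPM. Single markers differed from the sum in order: 5 of the 10 were highest in replicate 1 and 3 lowest in replicate 2, against 27.7% and 31.5% of all genes. Of these markers 8 differed beyond counting error, against 69.5% of all genes, and the number fell to 5 without replicate 1.

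For the proximal pair, Cldn2 took 82.2%, 83.9%, 77.6% and 82.3% of the reads of Cldn2 and Cldn10 in replicates 1 to 4. The interval in replicate 3 ran from 75.0% to 80.0% and lay below the other 3, whose lowest bound was 80.5%. Cldn2 was therefore lower in that sample by more than Cldn10 was. All intervals here cover counting error only.

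**Figure D3:**
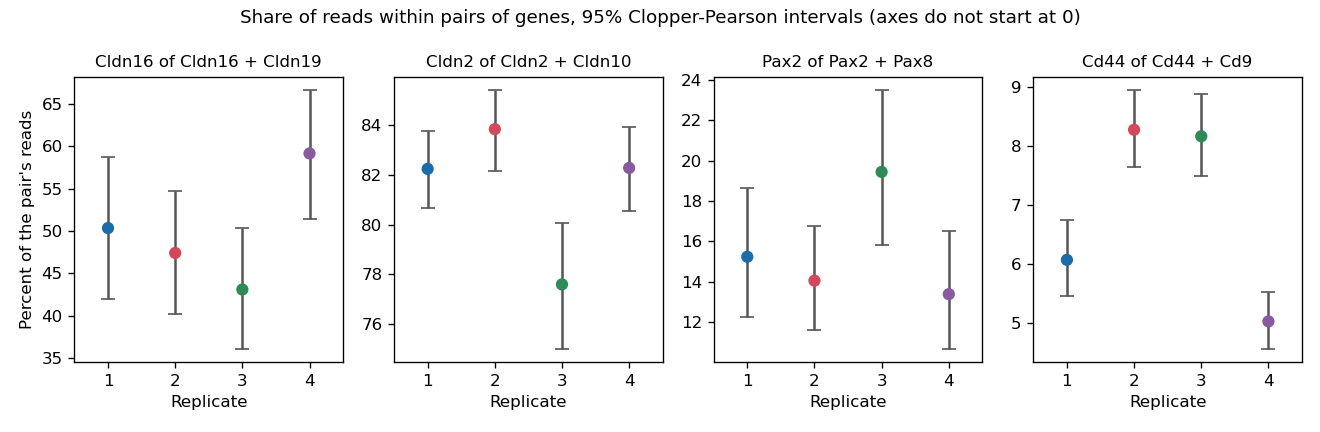
Percent of a pair's reads taken by its first gene (vertical axis, not starting at 0 and separate for each pair) in replicates 1 to 4 (horizontal axis), with 95% Clopper-Pearson intervals as bars. The Cldn2 share is lowest in replicate 3 at 77.6%, and the Cd44 share separates replicates 2 and 3 from replicates 1 and 4.

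The table held 6 further claudins, of which 5 differed beyond counting error, against 69.5% of all genes. Cldn6, a claudin of embryonic epithelia, had 19, 101, 51 and 18 reads in replicates 1 to 4, or 1.40, 6.23, 3.32 and 1.18 CPM. Its SD of 1.10 log2 CPM was the largest of the 11 claudins, with replicate 2 highest and replicates 1 and 4 near each other at the low end (chi-square test of reads, Benjamini-Hochberg adjusted p = 8.98e-17).

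Cldn4 and Cldn7, claudins of the distal nephron and collecting duct, were likewise highest in replicate 2. Cldn4 had 11.1, 18.1, 12.2 and 13.8 CPM and Cldn7 had 5.82, 9.63, 5.80 and 7.28 CPM in replicates 1 to 4. Cldn8, also a collecting duct claudin, ranged from 9.63 CPM in replicate 2 to 13.4 CPM in replicate 4, so it did not share that order. Cldn12 ranged from 19.4 to 24.8 CPM. Cldn15, a cation pore best known from the intestine, was at 27.6 ± 2.10 CPM (SD, n = 4) and did not pass the test (chi-square test of reads, Benjamini-Hochberg adjusted p = 0.0756). The 11 measured distal and collecting duct markers summed to between 229 and 263 CPM, with replicate 2 highest. Of them 7 differed beyond counting error, against 69.5% of all genes. Aqp2, the water channel of principal cells, varied most among them at 327, 963, 708 and 516 reads. The thiazide-sensitive transporter gene Slc12a3 varied least, with an SD of 0.11 log2 CPM, and Scnn1g, a sodium channel subunit gene, was at 5.80 ± 0.94 CPM (SD, n = 4).

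**Figure D4:**
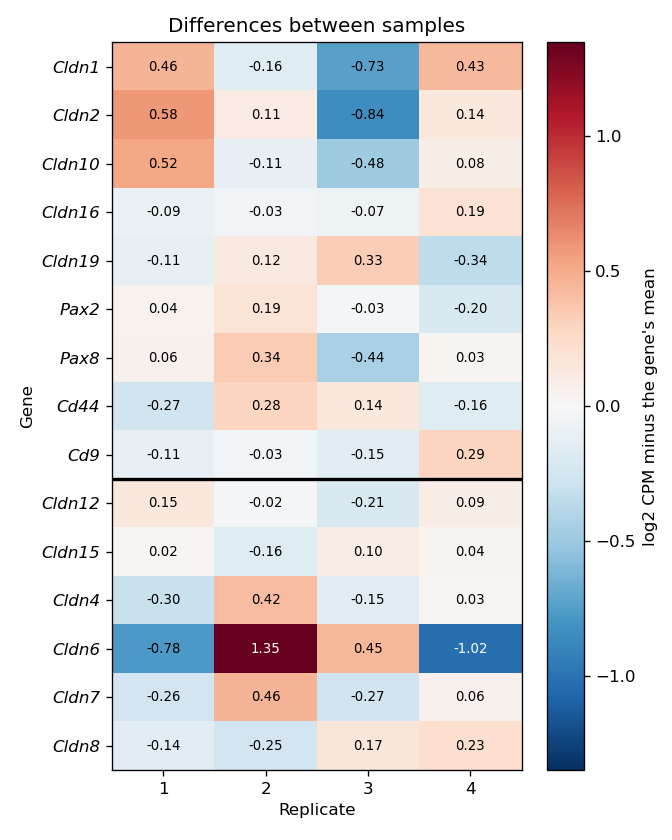
Colour and number give log2 CPM minus the gene's own mean over 4 samples, for the 9 genes of the set (above the line) and the 6 further claudins (below it), in replicates 1 to 4 (columns). Cldn1, Cldn2 and Cldn10 are at -0.73, -0.84 and -0.48 in replicate 3, and Cldn4, Cldn6 and Cldn7 are at 0.42, 1.35 and 0.46 in replicate 2.

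Pax8, the more deeply read of the paired-box genes, had 32.0, 38.9, 22.7 and 31.4 CPM in replicates 1 to 4. Replicate 2 was high, replicate 3 low, and the remaining samples lay together near the mean of 31.2 ± 6.64 CPM (SD, n = 4; 434, 630, 348 and 479 reads). The difference between samples exceeded counting error (chi-square test of reads, Benjamini-Hochberg adjusted p = 1.32e-13). Without replicate 3 the ratio of the highest to the lowest sample went from 1.71 to 1.24 and the SD from 0.32 to 0.17 log2 CPM (chi-square test of reads, Benjamini-Hochberg adjusted p = 0.000969). Highest in replicate 2 with lowest in replicate 3 was the order for 4.6% of all genes.

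Pax2 had 5.75, 6.36, 5.47 and 4.85 CPM, from 78, 103, 84 and 74 reads. No sample stood apart, and a difference was not detectable at this depth (chi-square test of reads, Benjamini-Hochberg adjusted p = 0.398, from 0.233 to 0.626 in the other settings). Pax2 took 15.2%, 14.1%, 19.4% and 13.4% of the reads of Pax2 and Pax8 in replicates 1 to 4. The share was highest in replicate 3, where Pax8 was lowest, but all 4 intervals overlapped. The SD of the Pax2 log2 level was 0.16, and that of its log2 ratio to the sum of podocyte markers was 0.49.

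Of 15 other measured nephron transcription factor genes, 12 differed beyond counting error, against 69.5% of all genes. Replicate 3 was lowest for 12 of them and replicate 2 highest for 8, against 19.6% and 21.4% of all genes. Hnf4a, a factor of the proximal tubule, had 260, 239, 132 and 172 CPM in replicates 1 to 4, with replicate 1 highest (3525, 3871, 2029 and 2616 reads). Irx3, an Iroquois gene of tubule patterning, had the largest SD of the list, 0.49 log2 CPM, with 97, 222, 96 and 123 reads. Pou3f3, a factor of distal nephron development, varied least with an SD of 0.16, and Lhx1, needed in early nephrons, had 15 to 26 reads. The sum of this list ranged from 560.4 to 831 CPM.

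Cd44, the hyaluronan receptor gene, had 24.2, 35.5, 32.3 and 26.1 CPM in replicates 1 to 4. Replicates 2 and 3 were above replicates 1 and 4. The mean was 29.5 ± 5.29 CPM (SD, n = 4; 328, 576, 495 and 398 reads), with a coefficient of variation of 17.9% against 4.72% from counting (chi-square test of reads, Benjamini-Hochberg adjusted p = 1.17e-08). Since leukocytes also carry CD44, their markers were read beside it. The 11 measured leukocyte markers summed to 1184, 1506, 1414 and 1340 CPM, and 10 of the 11 differed beyond counting error, against 69.5% of all genes. Replicates 2 and 3 had the highest sums, but this order held for only 3 of the 11 markers taken singly, Cd68, Csf1r and Fcgr3a, a count made after their values were seen. The share of all genes with this order was not computed. No leukocyte marker was at 0 in any sample. Cd3e, a T cell receptor subunit gene, had 16 to 51 reads and the largest SD of the list, 0.67 log2 CPM. Cd74, the invariant chain of MHC class II, was at 653 ± 90.2 CPM (SD, n = 4), and Fcgr3a, an Fc receptor gene, varied least. The SD of the Cd44 log2 level was 0.26, and that of its log2 ratio to the leukocyte sum was 0.13. The part of leukocytes in the differences of Cd44 was not tested.

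Cd9, the tetraspanin gene, had 374, 394, 363 and 494 CPM in replicates 1 to 4. Replicate 4 was high and the other 3 lay between 363 and 394 CPM. The mean was 406 ± 59.7 CPM (SD, n = 4), from 5077 to 7524 reads per sample. Counting error was only 1.28% at this depth, so a ratio of 1.36 between the extremes still passed the test (chi-square test of reads, Benjamini-Hochberg adjusted p = 1.69e-84). Without replicate 4 the ratio was 1.09. The SD of the Cd9 log2 level was 0.20, and those of its log2 ratios to the podocyte, endothelial and leukocyte sums were 0.39, 0.31 and 0.25. The Cd44 share of the reads of Cd44 and Cd9 was 6.07%, 8.28%, 8.17% and 5.02% in replicates 1 to 4. The intervals of replicates 2 and 3, both from 7.49% upward, did not overlap those of replicates 1 and 4, both up to 6.74%.

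Of the 23 measured partners of CD44 and CD9 (hyaluronan enzymes, linker proteins, tetraspanins), 20 differed beyond counting error, against 69.5% of all genes. Spp1, the gene of osteopontin, a CD44 ligand, varied most at 7466, 30562, 11958 and 17379 reads, with replicate 2 highest. The same sample was highest for 7 of the 23 genes and for 21.4% of all genes. Mif, a cytokine gene, varied least with an SD of 0.07 log2 CPM. Itgb1, the integrin beta-1 gene, was at 1590 ± 279 CPM (SD, n = 4), and Egfr, a receptor gene, at 4.49 ± 0.92 CPM. The sum of the list was even, between 7752 and 8612 CPM.

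Other genes reported from parietal cells did not all share an order. Of 16 measured, 15 differed beyond counting error, against 69.5% of all genes. Replicate 2 was highest for 8 and replicate 3 lowest for 7, against 21.4% and 19.6% of all genes. Vcam1, an adhesion molecule gene of parietal and activated endothelial cells, varied most at 564, 463, 772 and 1657 reads, with replicate 4 highest. The keratin gene Krt18 was at 3.88 ± 0.86 CPM (SD, n = 4), the scaffold gene Akap12 was at 149 ± 18.4 CPM, and Cd24 varied least. The summed level of the list was 710.2, 668, 616 and 737 CPM in replicates 1 to 4.

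Partners of claudins at the tight junction numbered 24, all measured, of which 23 differed beyond counting error, against 69.5% of all genes. Marveld2, the tricellulin gene, varied most, with 201, 104, 151 and 200 reads, replicate 2 being lowest. The receptor gene Lsr, of tricellular contacts, varied least with an SD of 0.12 log2 CPM. Cgnl1, the paracingulin gene, was at 790 ± 144 CPM (SD, n = 4), and Ildr1 was at 3.42 ± 0.58 CPM. The list summed to 3137, 2522, 2631 and 2958 CPM.

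The glomerular lists were set beside the claudins for comparison. Each of the 14 podocyte markers was highest in replicate 1, like Cldn1, Cldn2 and Cldn10, and lowest in replicate 2, against 27.7% and 31.5% of all genes. Their sum was 12526, 6917, 9171 and 11142 CPM in replicates 1 to 4. Cldn1 had its low point in replicate 3 instead, and its log2 ratio to this sum was lowest there, 0.65 below the mean ratio (-0.65). The SD of that ratio was 0.45, against 0.57 for the log2 level of Cldn1. Magi2, a slit diaphragm scaffold gene, was the most variable podocyte marker at 637, 165, 323 and 483 reads. The endothelial markers summed to 6270, 7256, 8273 and 6724 CPM, with replicate 3 highest. Egfl7 varied most of these with an SD of 0.39 log2 CPM and Ehd3 least with 0.15, while Kdr was at 1782 ± 307 CPM and Erg at 136 ± 27.5 CPM (SD, n = 4). The 10 mesangial markers summed to between 2366 and 2988 CPM with replicate 4 highest, and all 10 differed beyond counting error, against 69.5% of all genes. Among them Cspg4 varied least with an SD of 0.13, and Des was at 926 ± 180.3 CPM and Pdgfra at 12.9 ± 3.02 CPM (SD, n = 4). Of the proximal tubule markers, Slc34a1, the phosphate transporter gene, was least variable at 1556 ± 315 CPM, Slc4a4 most variable with an SD of 0.68, and Slc5a12 was at 106 ± 35.9 CPM (SD, n = 4). Within the thick ascending limb list, Egf varied most with an SD of 0.72 and Slc12a1 least with 0.10.

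The spread of each gene was then set against genes of like abundance with limma. None of the 9 genes was called (0 of 9), as for all genes, of which 0% passed the Benjamini-Hochberg adjusted threshold in limma's trend test. The 9 genes had adjusted p-values of at least 0.912 in this limma test, which was also the smallest value of all genes. No gene passed in any setting. With 4 samples and 3.79 prior degrees of freedom, the test therefore does not show whether the 9 genes vary more than others. Without adjustment, limma gave Cldn1 a p of 0.0354 and Cldn2 a p of 0.0116, so 2 of 9 were below 0.05, as were 5.47% of all genes. Their SDs of 0.57 and 0.60 log2 CPM stood at percentiles 96.0 and 96.7 of all genes, and that of Cldn10, 0.41, at 88.9. At the other end, Cldn16 with an SD of 0.13 stood at percentile 31.3, and its SD was 0.03 without replicate 4.

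**Figure D5:**
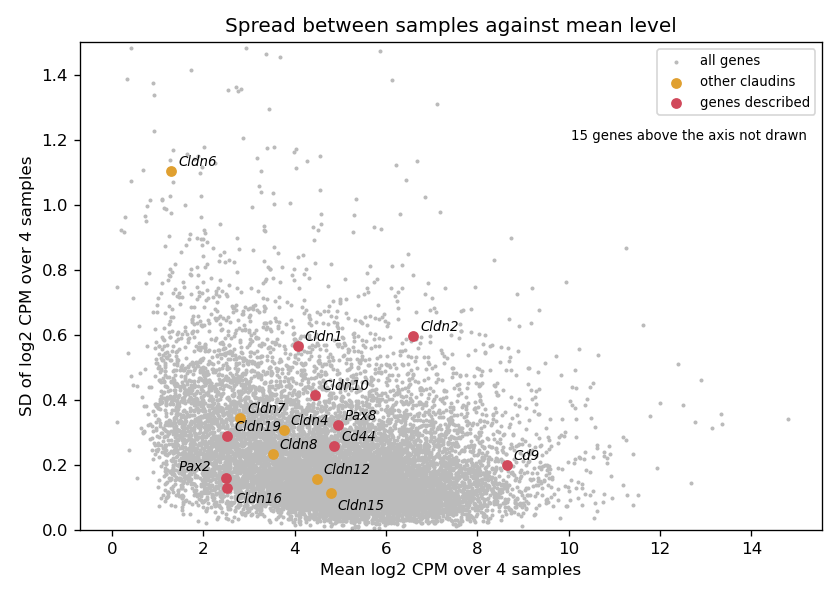
SD of log2 CPM over 4 samples (vertical axis) against mean log2 CPM (horizontal axis) for all genes (grey), the 9 genes of the set (red) and the 6 further claudins (orange); 15 genes with an SD above 1.5 lie outside the axis. Cldn1 and Cldn2 sit in the upper part of the cloud at 0.57 and 0.60, and Cldn16, Pax2 and Cldn15 sit low at 0.13, 0.16 and 0.11.

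For the 3 most variable genes with at least 100 reads in each sample, the genes nearest in pattern were found by the root mean square difference of centred log2 CPM over the 4 samples. For Cldn2 these were Fancd2os (0.024), Dio1, the deiodinase gene (0.043), and Lrrc19 (0.046). Fancd2os had only 42, 38, 18 and 36 reads in replicates 1 to 4. Dio1 had 931, 773, 406 and 741 reads in replicates 1 to 4, with replicate 1 high and replicate 3 low as for Cldn2. For Cldn1 they were Cemip, a hyaluronan-degrading protein gene (0.066), Usp18 (0.10) and Amn, the amnionless gene (0.101). For Cldn10 they were Alpl, the alkaline phosphatase gene (0.026), AABR07027088.1 (0.034) and Wasf3 (0.034). By the same measure Cldn1, Cldn2 and Cldn10 differed from each other by 0.22 in each pairing. Counting error alone, computed from the reads of both genes, would give a difference of 0.231 log2 between Cldn2 and Fancd2os, 0.0595 between Cldn2 and Dio1 and 0.0795 between Cldn10 and Alpl. Of the 9 distances to nearest genes only that of Amn, against 0.087 from counting, was above the value so computed, so their ranks are not resolved. With 4 samples, such likeness is a description and no test was made of it.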

How the data were processed

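Poly(A) RNA of glomeruli of rats was sequenced in 4 samples of a single group. Per the submitters' processing notes, HISAT2, featureCounts, Subread, limma and build Rnor_6.0 were used; their roles, the annotation, the use of strand and the filter on low genes are not given in the sources used here. The deposited file holds log2 values by the authors, 1 per gene and sample. In each column, 2 raised to the value was a whole number of reads plus 0.5 times a constant, with a largest deviation of 0.00071 reads, so reads and CPM were recovered for 13261 genes. In 4 other rows values were displaced between columns, and these were left out. Titles tied samples to columns, and replicate numbers follow accession order and only name samples.

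From the recovered reads, each gene was tested by its chi-square index of dispersion, with 3 degrees of freedom, against counting error given the total reads of each sample. limma 3.58.1 (R 4.3.3) compared residual variances of log2(CPM + 1), a pseudocount of 1, with their abundance trend. P-values were adjusted by Benjamini-Hochberg over all genes at a threshold of 0.05, and both tests were tested on simulated data. Other analyses used Python 3.11.15. No transcript lengths were used here, so the planned order of levels per length was not made. The members and lists were chosen with earlier results of these data known. Named were all members, all other claudins, the genes of each list with the largest and smallest SD and the highest and lowest mean CPM, which served to pick names and not to compare genes, and for the 3 most variable members the 3 genes nearest in pattern; some genes this rule selects are not reported here. Symbols found in more than 1 row (116 rows) were passed over. Alternatives were other scalings, pseudocounts and filters, a robust prior and leaving out each replicate.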

Additional observations from a re-analysis of the deposited data

Results flagged for a closer look

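Among 78 results (63 named genes, 4 shares and 11 list sums), 1 had a sample far from the rest, judged by the gap to its neighbour over the whole range at Dixon's 95% limit. Chance gives about 1 in 20, or 3.9 results. It was Cd24, with a ratio of 0.851. Replicate 1 was the low sample, at 728 reads against 1026, 999 and 964 in replicates 2 to 4.
Of all 154 measured genes of the lists, 4 passed this limit, Cd24, Cdh1, Ncam1 and Cd14, or 2.6%, against 5.08% of all genes.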

How the results depend on the processing

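Of 238 recomputed values, 233 stayed within their criterion. Among them were 18 counts of limma calls that were 0 in every setting and 52 means with 1 sample left out, which were fixed in advance. Cldn19 was no longer beyond counting error without replicate 3 or without replicate 4, and the thick ascending limb markers beyond counting error numbered from 5 (without replicate 1) to 8 when single replicates were left out. A pseudocount of 1 CPM moved the mean log2 levels of Cldn16 and Pax2 to 2.75 and 2.72 by construction. In 34 of 36 level results under another scaling or pseudocount the highest and lowest samples were the same; the other two were Cldn16 under trimmed-mean and median-of-ratios factors. Leaving out 1 of 4 samples cannot move a mean by more than its SD, so those 52 means could not have left their criterion. The order per length and the share of Cldn1 and Cldn5 were not run. No paired analysis was possible because there is a single group. Depth limits Cldn16, Cldn19 and Pax2, with 69 to 111 reads per sample.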
